A study of Mus musculus with 16 samples.

Results

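The fibroblast line named Cl_1 was compared with the line named Ctrl_1. The 4 libraries, 2 of each line, were chosen by their sample titles and not by a measured value, from 16 libraries in all. The study asked what the correction of a pathogenic mutation in the mouse mitochondrial tRNA-Ala gene by base editing does to tRNA, in mouse embryonic fibroblasts (MEFs) and in tissue. It measured 8 MEF libraries, from the lines Ctrl_1, Cl_1, Cl_2 and Cl_3, and 8 hearts from a mouse model of that mutation, which were not used here. Every MEF library was labelled with the same cell type and no genotype, treatment or age. The titles do not say what Ctrl and Cl stand for, so neither name was read as an edited or an unedited state. Each line gave 2 cell passages. The p-values therefore measure the spread between passages, and a difference between Cl_1 and Ctrl_1 is a difference between 1 line and 1 other line. The table holds tRNA only, so the fibroblast label could not be checked against marker genes.

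Mitochondria translate their own messages with a set of tRNAs that the mitochondrial genome encodes. These tRNA genes lie on both strands, between the rRNA and protein genes, and are cut out of long transcripts that run across each strand. Cytosolic translation uses nuclear tRNAs, whose genes are present in many copies and are transcribed one by one by RNA polymerase III. Nuclear tRNAs that share an anticodon but differ in the rest of the molecule are called isodecoders. A name such as tRNA-Leu-TAA-1 gives the amino acid, the anticodon in DNA letters and the number of the isodecoder, and the prefix mt marks a mitochondrial tRNA. The sources used here held no tRNA sequence, so none is shown.

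The libraries were made by mim-tRNAseq, which reads tRNAs end to end. The Ctrl_1 libraries held 3275140 and 4375975 counts and the Cl_1 libraries 3454444 and 2299862. Of 819 rows, 201 passed the filter on low counts: all 22 mitochondrial tRNAs, 175 of 265 nuclear tRNAs and 4 of 532 rows named tRX. The tested rows held at least 99.994% of the counts of each of the 8 libraries. Levels are given as CPM, the count scaled to library size with TMM factors, and a change is called where the edgeR quasi-likelihood test gave an adjusted p under 0.05 over all 201 rows. The rises and falls named are thus relative to the whole tRNA pool. In Cl_1 against Ctrl_1, 68 transcripts changed, or 33.8% of those tested: 30 rose, or 14.9%, and 38 fell, or 18.9%. The median log2 change over all 201 was -0.0064. Without replicate 1 of Ctrl_1, 43 transcripts passed, and 42 of these were among the 68. With only the Cl_1 and Ctrl_1 libraries in the fit, 41 passed.

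Mitochondrial tRNA-Ala, which brings alanine to the mitochondrial ribosome and is the subject of the series, fell most of the mitochondrial tRNAs. It had 1798 and 1921 counts in the Ctrl_1 libraries and 420 and 372 in the Cl_1 libraries, or 588 and 456 CPM against 125 and 160.2 CPM. Both Cl_1 libraries lay far below both Ctrl_1 libraries. The level was 3.67-fold lower in Cl_1 (log2 change -1.87 ± 0.22 SE, adjusted p = 0.00105 in edgeR). As a share of all mitochondrial tRNA counts it was 1.47% (95% Wilson interval 1.40 to 1.54) and 1.29% (1.23 to 1.35) in Ctrl_1. In Cl_1 it was 0.568% (0.517 to 0.625) and 0.538% (0.486 to 0.595). The intervals cover counting error only. The share separates the lines as the CPM does, so the fall of tRNA-Ala exceeded that of the mitochondrial tRNAs together. Under all 12 alternatives the fall passed the threshold, with log2 changes of -2.06 to -1.33, the smallest when scaled on the other mitochondrial tRNAs.

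Among the mitochondrial tRNAs transcribed from the strand opposite to tRNA-Ala, 9 of 14 fell and 0 rose, and all 14 had a log2 change below 0 (median -0.61). Over all 201 tested transcripts 38 fell, or 18.9%, and 101 had a log2 change below 0. With only the 2 lines in the fit, mt-tRNA-Phe alone of these 14 passed. mt-tRNA-Phe, whose gene opens the heavy-strand transcript in front of the small rRNA, had 6107 and 5391 CPM in Ctrl_1 and 2386 and 2965 in Cl_1 (log2 change -1.10 ± 0.12 SE, adjusted p = 0.00105 in edgeR). It had the highest mean of the mitochondrial tRNAs in Ctrl_1 and lay behind mt-tRNA-Val in Cl_1. mt-tRNA-Asp went from 2269 and 2117 to 709 and 1332 CPM (log2 change -1.10 ± 0.29 SE, adjusted p = 0.0221 in edgeR). Its Cl_1 libraries differed widely from each other. mt-tRNA-Leu-TAG went from 1272 and 1133 to 447 and 769.9 CPM (log2 change -0.99 ± 0.24 SE, adjusted p = 0.0159 in edgeR). mt-tRNA-Trp, the gene next to tRNA-Ala, had 3289 and 2486 CPM in Ctrl_1 and 1284 and 1884 in Cl_1 (log2 change -0.87 ± 0.21 SE, adjusted p = 0.0156 in edgeR). mt-tRNA-Ile (-0.64), mt-tRNA-Thr (-0.69), mt-tRNA-Arg (-0.54), mt-tRNA-His (-0.54) and mt-tRNA-Leu-TAA (-0.58) fell by smaller log2 changes (edgeR adjusted p 0.0100 to 0.0450). The 5 of this strand that missed the threshold were mt-tRNA-Met (-0.48, edgeR adjusted p = 0.0516), mt-tRNA-Val (-0.58), mt-tRNA-Gly (-0.57), mt-tRNA-Ser-GCT (-0.83) and mt-tRNA-Lys (-0.065). mt-tRNA-Ser-GCT, a truncated tRNA without the D arm, was rare, with 49.4 and 23.5 CPM in Ctrl_1 and 25.3 and 14.6 in Cl_1.

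On the strand of tRNA-Ala itself, 1 of the 7 others fell, mt-tRNA-Tyr, from 2363 and 2257 to 1569 and 1717 CPM (log2 change -0.49 ± 0.095 SE, adjusted p = 0.00596 in edgeR). The median log2 change of these 7 was 0.057. mt-tRNA-Asn and mt-tRNA-Cys, which lie in the same gene cluster as tRNA-Ala and mt-tRNA-Tyr, were at 0.14 and -0.28. mt-tRNA-Gln was at 0.19. For mt-tRNA-Asn the Cl_1 libraries, 262 and 509.8 CPM, spanned both Ctrl_1 libraries, 323 and 373 CPM. mt-tRNA-Pro was at -0.10 and mt-tRNA-Ser-TGA at 0.057, and neither passed. mt-tRNA-Glu had 602 and 1168 CPM in Ctrl_1 and 1306 and 1737 in Cl_1, the single mitochondrial tRNA with both Cl_1 libraries above both Ctrl_1 libraries, and did not pass (log2 change 0.78 ± 0.32 SE, adjusted p = 0.107 in edgeR). Both Cl_1 libraries lay below both Ctrl_1 libraries in 14 of the 22, and in the other 7 they overlapped. This was not counted for the nuclear transcripts, so no share over all tested transcripts can be set beside it. Without replicate 1 of Ctrl_1, and also with only the 2 lines in the fit, 3 mitochondrial tRNAs passed, Ala, Phe and Tyr. Leaving out replicate 1 of Cl_1 gave 4, these and Leu-TAG. Scaled on the mitochondrial tRNAs other than Ala, in a fit that kept the nuclear rows, Ala, Phe, Asp and Leu-TAG passed as lower and Asn, Gln, Glu and Ser-TGA as higher. These last 4 were above 0 under TMM too, without a call. Cys, His, Lys, Met, Pro and Tyr were below 0 under TMM and above 0 under this scaling, without a call there.

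**Figure D1:**
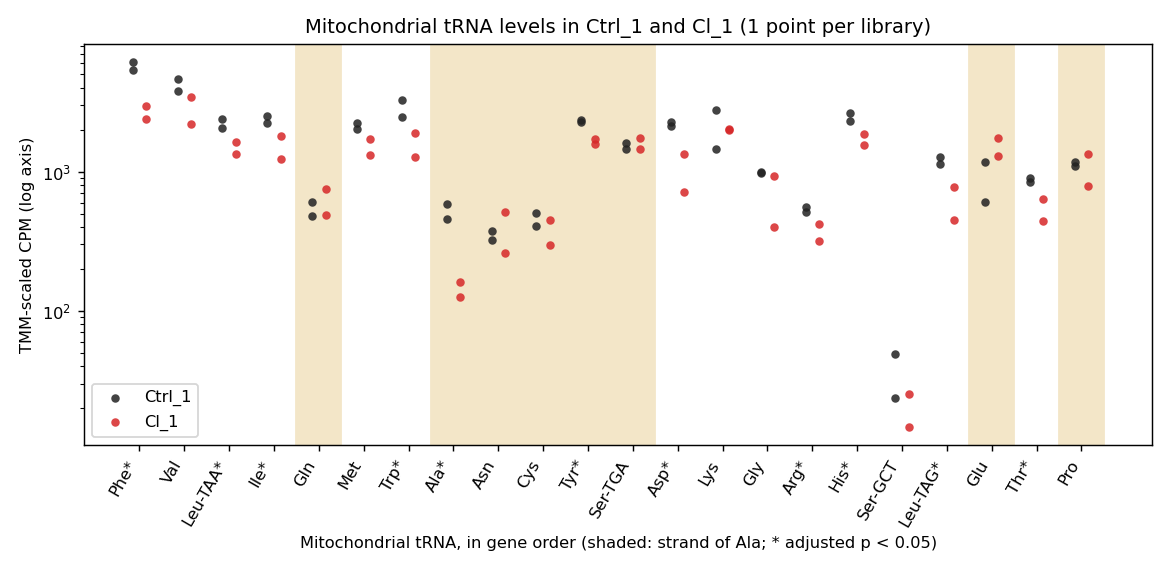
Level of each of the 22 mitochondrial tRNAs (TMM-scaled CPM, log axis) in the 2 Ctrl_1 and 2 Cl_1 libraries, 1 point per library, in the order of the genes; shading marks the strand of tRNA-Ala and a star an edgeR adjusted p under 0.05. The Cl_1 points for Ala, 125 and 160.2 CPM, lie well below those of Ctrl_1. In 14 of the 22 tRNAs both Cl_1 points lie below both Ctrl_1 points, a count not made for the nuclear transcripts.

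The mitochondrial tRNAs together took 3.74% and 3.41% of all counts in the Ctrl_1 libraries and 2.14% and 3.01% in the Cl_1 libraries. The lines did not overlap, but 2 libraries against 2 cannot give an exact permutation p below 0.333, so no test was made. The share is relative to all tRNA counts and gives no amount per cell. In bulk RNA, changes in mitochondria per cell, in tRNAs per mitochondrion and in nuclear tRNA cannot be told apart. In their mitochondrial share the Cl_1 libraries differed from each other more than those of any other line. Of the 22 mitochondrial tRNAs, 20 were higher in replicate 2 of Cl_1 than in replicate 1, beside 91 of 175 nuclear transcripts. In Cl_2 17 of the 22 were higher in replicate 2, in Cl_3 12 and in Ctrl_1 6. The part of the difference between the Cl_1 libraries in the mitochondrial results was not tested beyond the values given without each library. The strand opposite to tRNA-Ala took 81.4% and 77.3% of mitochondrial counts in Ctrl_1, against 71.4% and 71.8% in Cl_1. Neither shift was particular to Cl_1. The mean mitochondrial share was 2.56% in Cl_2 and 2.50% in Cl_3, and the mean share of the opposite strand 71.2% and 67.3%.

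Nuclear tRNAs moved in both directions in Cl_1, with 30 of 175 higher and 27 lower. Their median log2 change was 0.022. Changes over 2-fold were carried by 7 transcripts that rose and 9 nuclear transcripts that fell. Of these 16, 13 had a mean level under 1000 CPM over the 8 libraries. By level, they were 5 of the 40 nuclear transcripts under 100 CPM and 8 of the 29 at 100 to 1000 CPM. Of the 106 at 1000 CPM or more they were 3. The median size of the 57 nuclear changes was 0.606 on the log2 scale. In Ctrl_1 these 57 transcripts held 27.6% of nuclear tRNA counts on average.

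**Figure D2:**
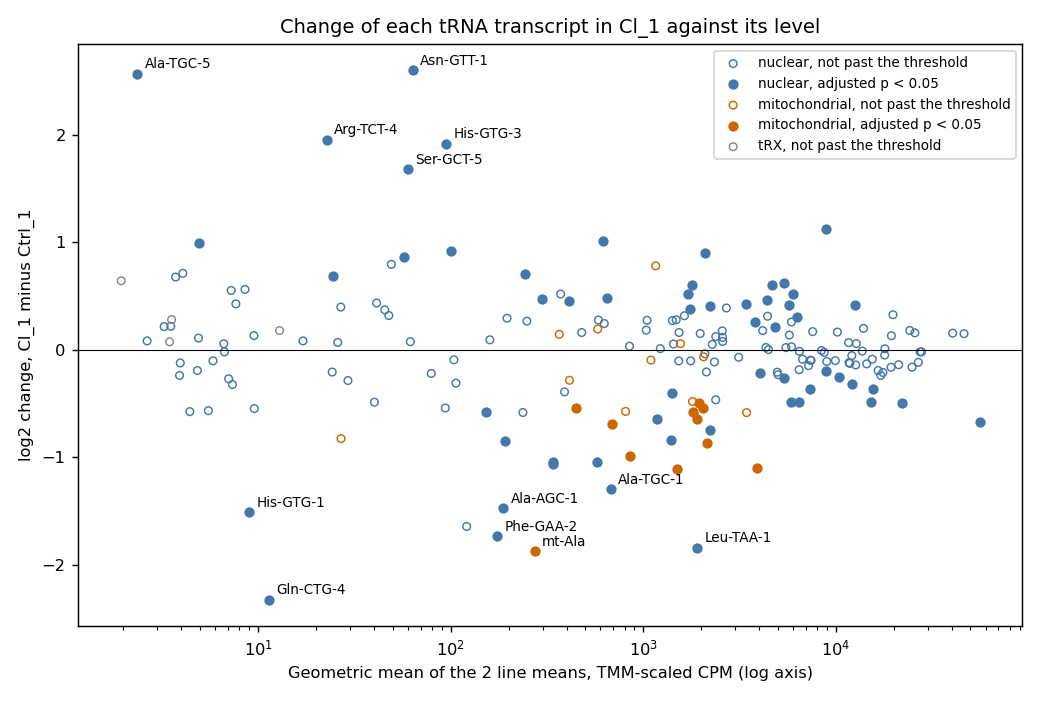
log2 change of each of the 201 tested transcripts in Cl_1 against Ctrl_1 (vertical axis) against its level (geometric mean of the line means, TMM-scaled CPM, log axis); filled points passed the edgeR test at an adjusted p under 0.05, open points did not, and the largest called changes are named. The called mitochondrial tRNAs all lie below 0, and the nuclear changes spread widest among transcripts of low level.

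The rises of lowest p included rare and abundant isodecoders. tRNA-Arg-CCG-3, which decodes the CGG arginine codon, had 6145 and 5863 CPM in Ctrl_1 and 13439 and 12798 in Cl_1 (log2 change 1.13 ± 0.10 SE, adjusted p = 0.000347 in edgeR). It moved from rank 51 to rank 26 among the 201 by mean level. tRNA-Asn-GTT-1, a minor asparagine isodecoder, had 27.8 and 23.98 CPM in Ctrl_1 and 137 and 176 in Cl_1 (log2 change 2.60 ± 0.25 SE, adjusted p = 0.000520 in edgeR). tRNA-His-GTG-3 had 48.4 and 48.9 CPM against 160.1 and 208 (log2 change 1.92 ± 0.18 SE, adjusted p = 0.000520 in edgeR). In none of these did the libraries of the lines overlap. tRNA-Ser-GCT-5 (1.68) and tRNA-Arg-TCT-4 (1.95) rose from below 40 CPM, the latter from 9.48 and 13.5 to 42.0 and 48.7 CPM. tRNA-Ala-TGC-5 was the rarest tested transcript in Ctrl_1, with 3 and 4 counts there and 23 and 11 in Cl_1, and it passed the filter through its counts in the Cl lines. Its fitted log2 change of 2.57 (± 0.36 SE, adjusted p = 0.00177 in edgeR) rests on few reads. tRNA-Gly-CCC-3 (1.01) and tRNA-Cys-GCA-4 (0.92) rose about as much as each other. tRNA-Ser-CGA-2 (0.60), tRNA-Pro-TGG-1 (0.52) and tRNA-Trp-CCA-5 (0.52) each lay above 1400 CPM in both lines. tRNA-Met-CAT-1, an elongator methionine tRNA, went from 11079 and 10616 to 14719 and 14154 CPM (0.41). The 12 rises named here had edgeR adjusted p-values of 0.000347 to 0.00268.

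The fall with the smallest p of all transcripts was that of tRNA-Leu-TAA-1, which decodes the UUA leucine codon. It had 3579.8 and 3652 CPM in Ctrl_1 and 975 and 1046 in Cl_1, a 3.58-fold lower level (log2 change -1.84 ± 0.090 SE, adjusted p = 1.92e-05 in edgeR). tRNA-Phe-GAA-2 had 329 and 308 CPM in Ctrl_1 and 95.6 and 96.0 in Cl_1 (log2 change -1.73 ± 0.23 SE, adjusted p = 0.00145 in edgeR). tRNA-Gln-CTG-4 was rare, at 24.8 and 26.4 CPM against 5.36 and 4.74 (log2 change -2.32 ± 0.20 SE, adjusted p = 0.000347 in edgeR). The 2 libraries of each line were close to each other for all 3, and far from the other line. Cytosolic tRNA-Ala, which is charged by a different alanyl-tRNA synthetase than its mitochondrial counterpart, gave 5 of the 12 falls of lowest p. tRNA-Ala-AGC-1 fell from 333 and 294 to 95.6 and 130.5 CPM (-1.47), and tRNA-Ala-TGC-1 from 1060.4 and 1066 to 363 and 502 CPM (-1.30). tRNA-Ala-AGC-3 (-0.75), tRNA-Ala-AGC-10 (-0.65) and tRNA-Ala-AGC-2 (-0.49) fell by less. Of all 19 tested cytosolic tRNA-Ala transcripts 5 fell and 3 rose, beside 27 that fell and 30 that rose of all 175 nuclear transcripts. Summed per anticodon, Ala-AGC (0.12, edgeR adjusted p = 0.719) and Ala-TGC (-0.075, edgeR adjusted p = 0.358) did not pass. Among abundant transcripts, tRNA-Lys-TTT-1 ranked first in Ctrl_1 with 73254 and 67709 CPM and second in Cl_1 with 48066 and 40309 CPM (log2 change -0.67 ± 0.089 SE, adjusted p = 0.00145 in edgeR). tRNA-Gly-GCC-1 (-0.83), tRNA-Val-TAC-1 (-0.49) and tRNA-His-GTG-2 (-0.50) completed the 12, whose edgeR adjusted p-values were 1.92e-05 to 0.00359.

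By amino acid, 3 of 3 tested tRNA-His transcripts passed, 1 higher and 2 lower. Of 19 tRNA-Arg transcripts 5 rose and 2 fell, of 12 tRNA-Ser 4 rose and 2 fell, of 15 tRNA-Leu 4 rose and 3 fell, and of 10 tRNA-Gly 3 rose and 1 fell. Both called tRNA-Trp transcripts of 4 tested rose (median 0.49), as did both called tRNA-Pro transcripts of 5 (median 0.30). Both called tRNA-Glu transcripts of 6 fell (median -0.15), and both called tRNA-Lys transcripts of 10 (median -0.061). None of the 5 tRNA-Ile, 3 tRNA-Tyr or 4 initiator methionine transcripts passed, nor did the selenocysteine tRNA (0.27) or the 4 tRX rows (0.074 to 0.64). Of all 175 tested nuclear transcripts 30 were higher and 27 lower. For all tested transcripts together, mitochondrial ones included, the shares were 14.9% higher and 18.9% lower.

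Reads of near-identical isodecoders can be split between rows in a way that the deposited counts do not show, so the counts of each anticodon were also summed. TMM factors were computed anew on these sums, so their CPM cannot be set against the CPM of single transcripts. Of 74 anticodon totals 17 passed in Cl_1 against Ctrl_1 (23% of those tested). All 7 that rose (9.46%) were nuclear, and of the 10 that fell (13.5%) 5 were nuclear and 5 mitochondrial. tRNA-Arg-CCG rose most, from 13078 and 12532 to 21558 and 20454 CPM (log2 change 0.71 ± 0.073 SE, adjusted p = 0.000193 in edgeR). tRNA-Ser-CGA went from 6869 and 6795 to 10107 and 10335 CPM (log2 change 0.58 ± 0.058 SE, adjusted p = 0.000193 in edgeR). tRNA-Leu-CAA (0.48), tRNA-Trp-CCA (0.41), tRNA-Pro-CGG (0.37), tRNA-Met-CAT (0.22) and tRNA-Pro-TGG (0.20) rose by less. tRNA-Pro-TGG lost its call in 3 of the 4 fits that left out a Ctrl_1 or Cl_1 library (all but replicate 2 of Ctrl_1), and tRNA-Met-CAT in 2 of 4, without either Ctrl_1 library. tRNA-Pro-CGG lost it without replicate 1 of Ctrl_1.

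Among the nuclear totals that fell, tRNA-Lys-TTT, the largest, went from 69824 and 65677 to 49292 and 41150.0 CPM (log2 change -0.58 ± 0.12 SE, adjusted p = 0.00666 in edgeR). tRNA-Val-TAC (-0.42), tRNA-His-GTG (-0.41), tRNA-Leu-TAA (-0.39) and tRNA-Glu-TTC (-0.18) also passed as lower. tRNA-Glu-TTC lost its call in all 4 fits with 1 library left out, and tRNA-Lys-TTT without replicate 1 of Ctrl_1, while Val-TAC, His-GTG and Leu-TAA passed in all 4. The mitochondrial totals, which are single tRNAs tested again with fewer rows and another scaling, kept Ala (-1.80), Asp (-1.03), Phe (-1.03), Leu-TAG (-0.91) and Trp (-0.79) as calls. Ala and Phe passed in all 4 of those fits, Asp and Trp in 2 and Leu-TAG in 1, and leaving out replicate 1 of Ctrl_1 or replicate 1 of Cl_1 ended the calls of these 3. No nuclear anticodon total changed by more than 1.64-fold in a call, whereas single isodecoders changed by up to 6.05-fold. Without replicate 1 of Ctrl_1 9 totals passed, and without replicate 2 of Cl_1 27 did. With TMM factors from nuclear rows 6 rose and 15 fell.

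**Figure D3:**
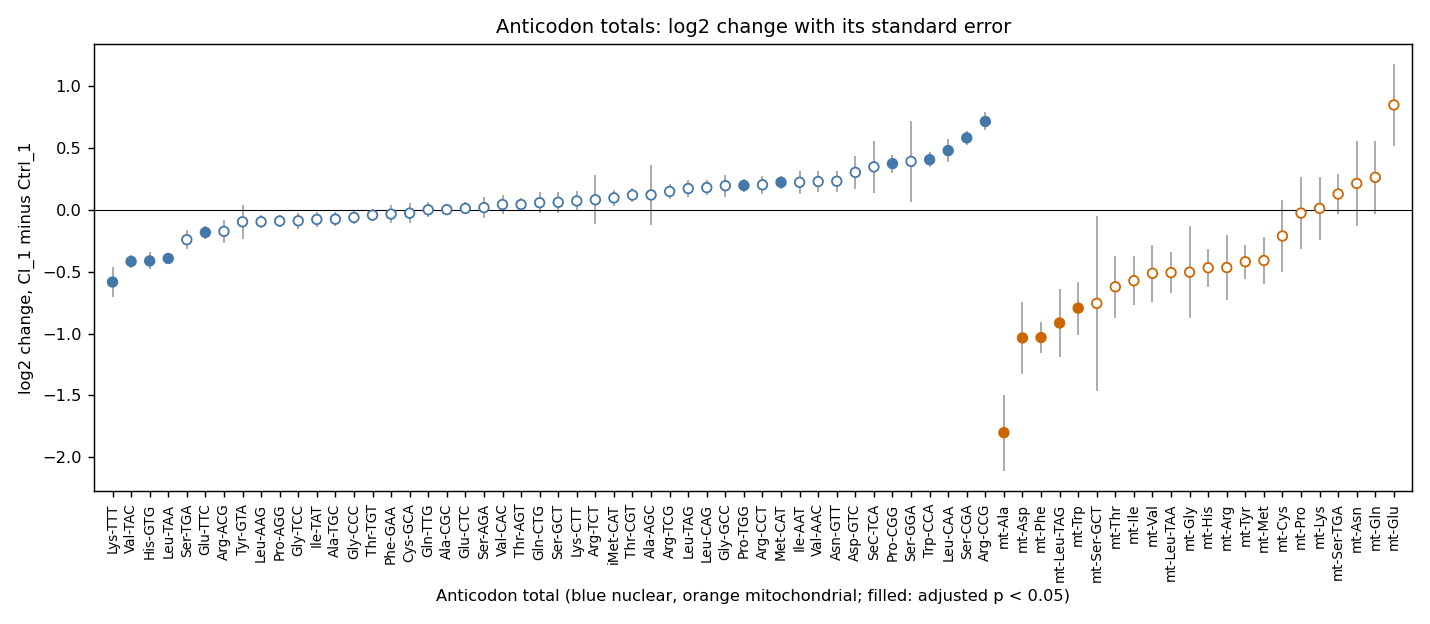
log2 change of each nuclear (48, blue) and mitochondrial (22, orange) anticodon total in Cl_1 against Ctrl_1, ordered by size, with its standard error from edgeR; filled points passed at an adjusted p under 0.05. Called nuclear totals lie between -0.58 and 0.71, and mitochondrial Ala lies lowest at -1.80.

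Whether isodecoders changed against the rest of their own anticodon was tested with edgeR's usage test, in which a change shared by the anticodon cancels. The relative usage is the log2 change of a transcript less the log2 change fitted for its anticodon. Of 169 isodecoders in 42 nuclear anticodons, 30 differed in usage (17.8% of those tested), 17 higher (10.1%) and 13 lower (7.69%), in 19 anticodons. In 13 of these 19 the anticodon total itself had not passed. In 10 anticodons, Ala-AGC, Ala-TGC, Arg-ACG, Arg-TCT, His-GTG, Leu-AAG, Leu-TAG, Met-CAT, Ser-GCT and Val-CAC, transcripts that rose stood beside transcripts that fell.

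The largest exchange in share among the isodecoders of lowest p was in tRNA-Leu-TAA. tRNA-Leu-TAA-1 made up 31.6% and 32.7% of the anticodon's counts in the Ctrl_1 libraries and 11.8% and 13.0% in Cl_1 (relative usage -1.37, edgeR adjusted p = 1.98e-08). The remainder was almost wholly tRNA-Leu-TAA-2, whose level was at a log2 change of -0.10 and did not pass. tRNA-Phe-GAA-2 went from 1.02% and 0.938% of its anticodon to 0.302% and 0.333% (relative usage -1.63, edgeR adjusted p = 2.13e-07), and the anticodon total was at -0.034. tRNA-Ala-TGC-1 went from 4.52% and 4.86% to 1.78% and 2.44% (relative usage -1.15, edgeR adjusted p = 1.87e-06). In the same anticodon tRNA-Ala-TGC-5, under 0.1% throughout, had a relative usage of 2.72. This value rests on the few reads given above. The transcript passed the filter through its counts in the Cl lines, which favours a rise. It is nevertheless counted among the usage calls and the rises over 2-fold. tRNA-Met-CAT-4 went from 2.22% and 2.16% to 0.758% and 1.16% while the total of its anticodon rose. tRNA-Gln-CTG-4 also lost share (relative usage -2.31, edgeR adjusted p = 3.27e-08), from a level under 0.1% of its anticodon. tRNA-Ala-AGC-1, tRNA-Ala-AGC-2, tRNA-Ala-AGC-3 and tRNA-Ala-AGC-10, which fell in level, did not pass for usage (edgeR adjusted p 0.0636 to 0.497).

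Minor isodecoders that gained share included tRNA-His-GTG-3, with 0.181% and 0.189% in Ctrl_1 and 0.832% and 1.13% in Cl_1 (relative usage 2.40, edgeR adjusted p = 2.60e-09). The dominant tRNA-His-GTG-2 held over 98% in both lines. tRNA-Asn-GTT-1 went from 0.0723% and 0.0622% to 0.304% and 0.432% (relative usage 2.44, edgeR adjusted p = 1.98e-08). tRNA-Gly-CCC-3 went from 2.23% and 2.54% to 4.70% and 5.84% (relative usage 1.15, edgeR adjusted p = 2.59e-06), and tRNA-Ser-GCT-5 from 0.104% and 0.148% to 0.385% and 0.433% (relative usage 1.69, edgeR adjusted p = 1.20e-07). Each of these shares was higher in both Cl_1 libraries than in both Ctrl_1 libraries. The anticodons Arg-CCG and Arg-TCT, chosen after their values were seen, had large exchanges between isodecoders. In Arg-CCG, tRNA-Arg-CCG-3 went from 43.8% and 44.5% to 62.2% and 61.5% of the counts. In Arg-TCT, tRNA-Arg-TCT-2 went from 13.2% and 13.1% to 23.1% and 25.3%, and tRNA-Arg-TCT-5 from 7.08% and 7.08% to 2.98% and 3.79%. tRNA-Arg-TCT-3 went from 23.2% and 24.4% to 16.7% and 17.6% and did not pass for usage (edgeR adjusted p = 0.305). The mean shares in Cl_2 and Cl_3 were 62.3% and 59.2% for tRNA-Arg-CCG-3 and 20.8% and 20.8% for tRNA-Arg-TCT-2. For tRNA-Arg-TCT-5 they were 6.00% and 5.07%. How the authors assigned reads shared between near-identical isodecoders is not given in the sources used here, and its part in these exchanges was not tested.

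**Figure D4:**
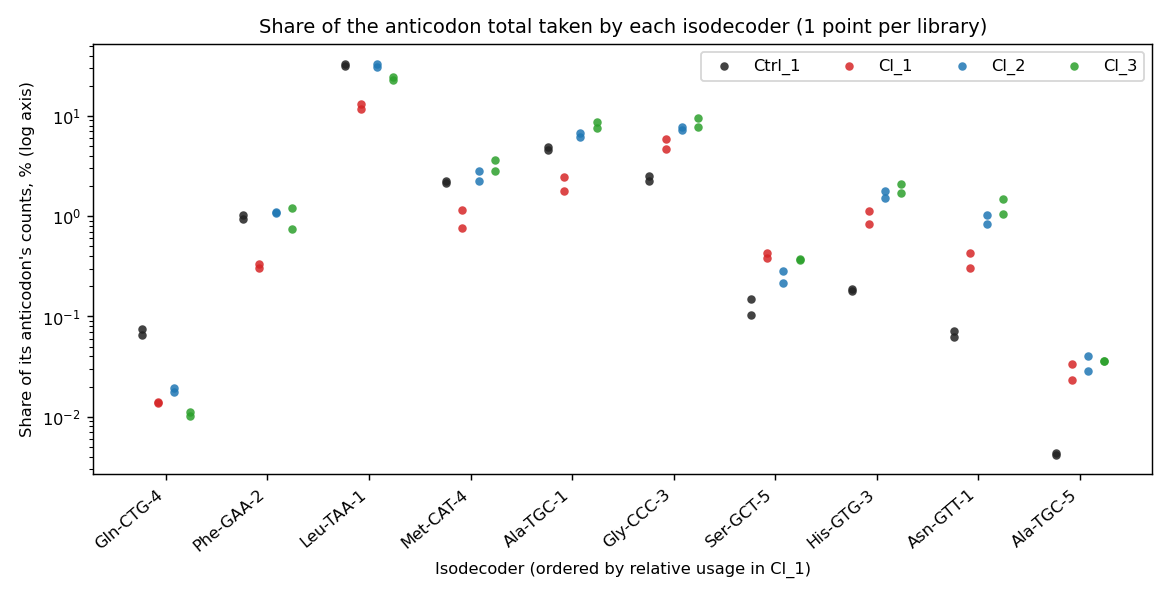
Share of its anticodon's counts (percent, log axis) taken by each of the 10 isodecoders with the lowest usage p, 1 point per library, in Ctrl_1, Cl_1, Cl_2 and Cl_3. For Leu-TAA-1, Phe-GAA-2, Met-CAT-4 and Ala-TGC-1 the Cl_1 points lie below all others, while for His-GTG-3 and Asn-GTT-1 they lie between Ctrl_1 and the other Cl lines.

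What set Cl_1 apart from the other Cl lines was tested directly, as Cl_1 minus the mean of Cl_2 and Cl_3, in which the Ctrl_1 libraries cancel. Here 49 of 201 transcripts differed (24.4%), 16 higher (7.96%) and 33 lower (16.4%) in Cl_1, and all 49 were nuclear. With library totals as scaling 7 were higher and 35 lower, and with TMM factors from nuclear rows 30 and 30. The split of higher to lower thus moves with the scaling. Leaving out replicate 1 of Cl_1, 29 passed, without replicate 2 of Cl_3 30, and without replicate 2 of Cl_2 32. None of the 22 mitochondrial tRNAs passed in edgeR or in DESeq2, and 1, mt-tRNA-Met (0.33), had an unadjusted edgeR p under 0.05. mt-tRNA-Ala in Cl_1 was at a log2 difference of -0.28 ± 0.19 SE from the mean of the others (adjusted p = 0.300 in edgeR), with 234 and 287 CPM in Cl_2 and 127 and 104 in Cl_3. The Cl_1 libraries overlapped those of Cl_3 and lay below those of Cl_2. Against Cl_2 alone, where 34 transcripts passed (16.9% of those tested), mt-tRNA-Ala was lower in Cl_1 (log2 difference -0.87 ± 0.21 SE, adjusted p = 0.0338 in edgeR), and it was the single mitochondrial call. Against Cl_3 alone, where 52 passed (25.9%), it did not pass (0.30 ± 0.21 SE, adjusted p = 0.326 in edgeR). Tested again among the anticodon totals, mt-tRNA-Ala did not pass against Cl_2 (-0.90 ± 0.30 SE, adjusted p = 0.256 in edgeR). The comparisons with Cl_2 alone and Cl_3 alone were not recomputed under the alternatives.

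The transcripts of lowest p that were lower in Cl_1 were isodecoders of Ala, Leu, Lys and Gly. tRNA-Leu-TAA-1 had 2590.1 and 2874 CPM in Cl_2 and 2226 and 2354 in Cl_3, between the levels of Cl_1 and Ctrl_1 (Cl_1 against the others -1.31 ± 0.080 SE, adjusted p = 0.000100 in edgeR). tRNA-Ala-AGC-1 had 470.1 and 568 CPM in Cl_2 and 545 and 791 in Cl_3, above Ctrl_1, where Cl_1 lay below it (-2.38 ± 0.23 SE, adjusted p = 0.000538 in edgeR). The same arrangement of the lines held for tRNA-Ala-AGC-3, with 3498 and 3648 CPM in Cl_2 and 3585 and 3912 in Cl_3 (-1.09), and for tRNA-Ala-TGC-1, with 1225 and 1412 CPM in Cl_2 and 1373 and 1734 in Cl_3 (-1.73). tRNA-Ala-AGC-10 was -0.78 from the others. tRNA-Lys-TTT-2 had 1139 and 1324 CPM in Cl_1 and 1328 and 1116 in Ctrl_1, against 2721 and 2940.2 in Cl_2 and 3954 and 4921 in Cl_3 (-1.53 ± 0.13 SE, adjusted p = 0.000368 in edgeR). Cl_1 and Ctrl_1 overlapped there. tRNA-Gly-CCC-2 and also tRNA-Ala-TGC-6 rose in Cl_1 against Ctrl_1 (0.70 and 0.86) and were still below the other Cl lines (-1.69 and -1.45).

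The transcripts that were higher in Cl_1 than in the other Cl lines differed by less. For the 8 of lowest p the log2 differences were 0.20 to 0.39 (edgeR adjusted p 0.00535 to 0.0208). Most were near the threshold. Of 6 fits with 1 Cl library left out, tRNA-Leu-CAG-2 and tRNA-Ser-CGA-2 lost the call in 5, tRNA-Leu-CAA-3 and tRNA-Thr-TGT-3/2 in 4, tRNA-Ala-CGC-2 in 2 and tRNA-Pro-TGG-2 in 1. tRNA-Arg-CCG-2 and tRNA-Leu-CAG-1 passed in all 6, as did the 8 transcripts named as lower. Leaving out replicate 1 of Cl_2 ended 6 calls, replicate 1 of Cl_1 5, replicate 2 of Cl_2 and replicate 2 of Cl_3 4 each, and replicate 2 of Cl_1 2. tRNA-Leu-CAG-1 had 6341 and 5554 CPM in Cl_1 and 5645 and 6024 in Ctrl_1, against 4715 and 4672 in Cl_2 and 4546 and 4226 in Cl_3. The others, tRNA-Arg-CCG-2, tRNA-Ala-CGC-2, tRNA-Pro-TGG-2, tRNA-Thr-TGT-3/2, tRNA-Leu-CAG-2, tRNA-Leu-CAA-3 and tRNA-Ser-CGA-2, were likewise abundant, above 1000 CPM in every library. tRNA-Ser-CGA-2 and tRNA-Leu-CAA-3 also rose in Cl_1 against Ctrl_1 (0.60 and 0.61), and the other 6 did not pass there. Summed per anticodon, 2 of 74 totals differed (2.7%): tRNA-Leu-CAG was higher in Cl_1 (0.27 ± 0.052 SE, adjusted p = 0.0246 in edgeR) and tRNA-Leu-TAA lower (-0.22 ± 0.040 SE, adjusted p = 0.0246 in edgeR).

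**Figure D5:**
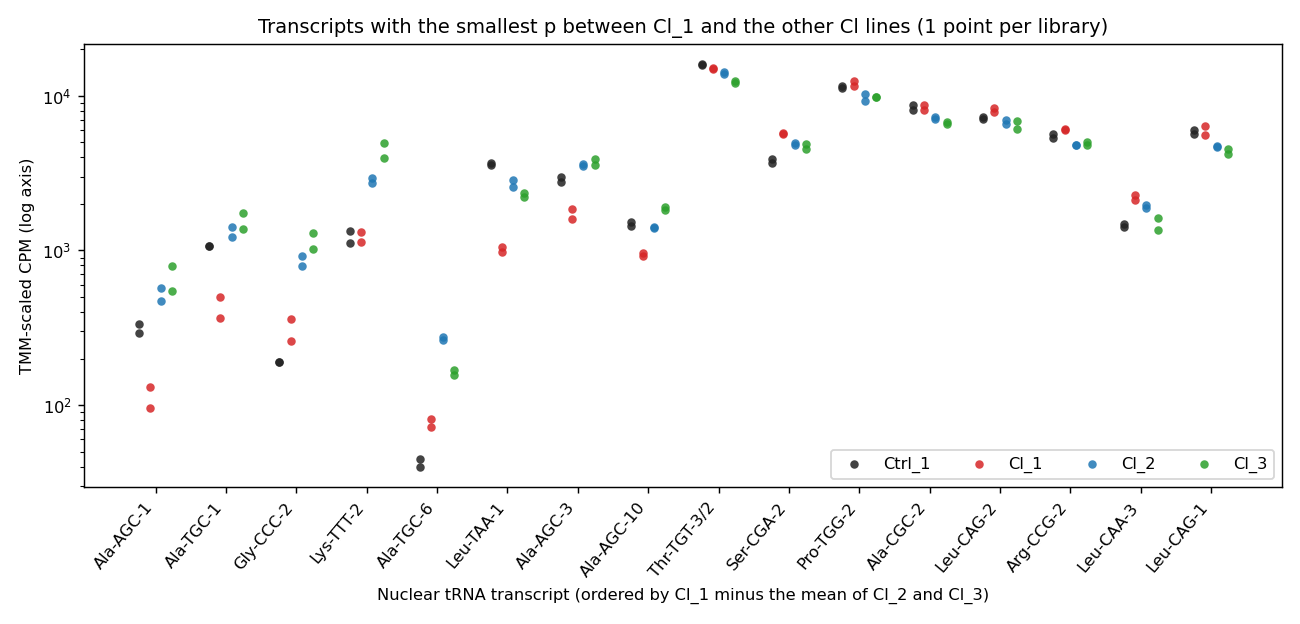
Level (TMM-scaled CPM, log axis) of the 16 nuclear transcripts with the lowest p between Cl_1 and the mean of Cl_2 and Cl_3, 8 in each direction, 1 point per library of the 4 lines. For the Ala isodecoders AGC-1, AGC-3, AGC-10 and TGC-1 and for Leu-TAA-1 both Cl_1 points lie below those of the other 3 lines, and for Lys-TTT-2 they lie at the level of Ctrl_1.

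Read beside the comparison with Ctrl_1, which shares the Cl_1 libraries, the 49 transcripts fell into several arrangements. In 11, Cl_1 was lower than both Ctrl_1 and the other Cl lines; these were 5 Ala isodecoders, Leu-TAA-1, Phe-GAA-2, Met-CAT-4, Val-CAC-1, Arg-TCT-5 and His-GTG-1. In 4, Arg-CCG-3, Asp-GTC-2, Leu-CAA-3 and Ser-CGA-2, it was higher than both. In 7, Asn-GTT-1, His-GTG-3, Arg-TCT-4, Cys-GCA-4, Gly-CCC-2, Gly-CCC-3 and Ala-TGC-6, it was higher than Ctrl_1 and lower than the other Cl lines. tRNA-Asn-GTT-1, for example, had 329 and 402 CPM in Cl_2 and 403 and 581 in Cl_3. tRNA-Ser-GCT-2 alone was lower than Ctrl_1 (-0.49) and higher than the other Cl lines (0.27). The remaining 26, 11 higher and 15 lower than the other Cl lines, had not passed against Ctrl_1. Of the 68 transcripts called against Ctrl_1, 45 did not pass against the mean of the other Cl lines, among them all 11 mitochondrial tRNAs.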

How the data were processed

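Total RNA was oxidised and beta-eliminated, a chemistry that tells charged from uncharged tRNA ends, and sequenced by mim-tRNAseq on an Illumina NextSeq instrument, per the labels' protocols. The submitters' processing notes name cutadapt 3.5 and the mouse build mm39; no aligner, counter or rule for reads matching several similar tRNAs is named in the sources used here. The authors deposited raw read counts per tRNA transcript, whole numbers that were not normalized, and the MEF table was used. Its 8 columns were matched to sample titles. It holds no counts per tRNA end, so charging was not analysed here.

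Tests used edgeR 4.0.16 under R 4.3.3: filterByExpr by line (minimum count 10, minimum total 15), TMM, glmQLFit and glmQLFTest, with the 8 MEF libraries in 1 fit and the line as factor, so that all lines share 1 estimate of the spread. P-values were adjusted by Benjamini-Hochberg over all rows tested, with a threshold of 0.05. The SE is the size of the log2 change divided by the square root of F. Usage came from diffSpliceDGE over nuclear anticodons with at least 2 tested rows. The scripts were tested on simulated data. Replicates differed by more than sampling noise in both lines (chi-square per degree of freedom 204 in Ctrl_1 and 93.9 in Cl_1), so none was a copy. Alternatives changed the scaling, the filter, the test (DESeq2 1.42.0), the libraries in the fit and the replicate block. Named transcripts were mt-tRNA-Ala and all other mitochondrial tRNAs, up to 12 nuclear transcripts in each direction, up to 10 anticodon totals in each direction, 10 isodecoders for usage, and 8 in each direction for Cl_1 against the other Cl lines, each by smallest adjusted p. The members and lists were chosen with earlier results of these data known. The order of mitochondrial genes was read from RefSeq's GRCm38.p6 table, and strands are textbook knowledge.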

Additional observations from a re-analysis of the deposited data

Results flagged for a closer look

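The changes of 16 nuclear transcripts against Ctrl_1 differed between Cl_1 and the mean of Cl_2 and Cl_3 by the edgeR test of that difference. On the log2 scale the difference was negative, with Cl_1 lower, for tRNA-Ala-AGC-1 (-2.38), tRNA-Ala-TGC-1 (-1.73), tRNA-Gly-CCC-2 (-1.69), tRNA-Lys-TTT-2 (-1.53), tRNA-Ala-TGC-6 (-1.45), tRNA-Leu-TAA-1 (-1.31), tRNA-Ala-AGC-3 (-1.09) and tRNA-Ala-AGC-10 (-0.78). It was positive, with Cl_1 higher, for tRNA-Arg-CCG-2 (0.31), tRNA-Leu-CAG-1 (0.39), tRNA-Ala-CGC-2 (0.28), tRNA-Pro-TGG-2 (0.28), tRNA-Ser-CGA-2 (0.26), tRNA-Thr-TGT-3/2 (0.20), tRNA-Leu-CAG-2 (0.29) and tRNA-Leu-CAA-3 (0.39). These are the 8 in each direction with the smallest adjusted p among 49 that passed.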

How the results depend on the processing

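Of 1011 recomputed values of named transcripts, anticodon totals and usages, 895 kept their direction and their side of the threshold, 84 kept the direction and lost the call, 18 gained one and 14 changed sign. All that changed sign were mitochondrial tRNAs. These were named whatever their value, whereas nuclear transcripts, anticodon totals and usages were named because they passed the threshold. The scaling on mitochondrial tRNAs was recorded for mitochondrial tRNAs only. The sign changes therefore do not compare mitochondrial with nuclear results. Scaled on the mitochondrial tRNAs other than Ala, the sign changed for Cys (0.24), His (0.0051), Lys (0.52), Met (0.054), Pro (0.40) and Tyr (0.059). Under library totals it changed for Lys (0.0048). With 1 library left out the sign changed for Asn (-0.37 to 0.57), Cys (-0.57 to 0.00135), Gln (-0.11 to 0.49), Lys (-0.47 to 0.45), Pro (-0.48 to 0.25) and Ser-TGA (-0.0278 to 0.19): for Asn, Gln and Ser-TGA without replicate 2 of Cl_1, for Cys and Pro without its replicate 1, and for Lys and Ser-TGA without replicate 1 of Ctrl_1. With 1 library left out, 43 to 63 transcripts passed in Cl_1 against Ctrl_1, 3 to 14 mitochondrial tRNAs, 9 to 27 anticodon totals and 22 to 25 usages, and 29 to 44 transcripts against the other Cl lines. mt-tRNA-Ala was then at -2.06 to -1.69. The mitochondrial share was -1.43 to -0.57 points from Ctrl_1, and as a log2 ratio to nuclear counts -0.51. With only the 2 lines in the fit 41 transcripts and 3 mitochondrial tRNAs passed, a fit with fewer samples. DESeq2 called 28 anticodon totals and 77 transcripts. Counts summed per anticodon, an alternative chosen after seeing the data, left 2 differences from the other Cl lines. The cause of the other shifts was not tested. Rows of at least 100 CPM, also added later, gave 61 transcripts and 26 usages.

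The labels give 2 passages per line, and nothing says that the replicate numbers pair the lines. Deviations of same-numbered libraries correlated at 0.0698 to 0.248 over 6 pairs of lines. With the replicate number as a block 77 transcripts passed, 24 anticodon totals, 37 usages, 12 mitochondrial tRNAs with Glu higher, and 55 transcripts against the other Cl lines.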

Other observations

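Summed by amino acid, the nuclear tRNA pool of Cl_1 differed most from that of Ctrl_1 in tRNA-Lys, by -2.34 percentage points (shares of nuclear counts, mean ± SD, n = 2, no test). tRNA-Lys went from 9.98% ± 0.293 in Ctrl_1 to 7.64% ± 0.328 in Cl_1, and tRNA-His from 2.59% ± 0.0123 in Ctrl_1 to 1.91% ± 0.00343 in Cl_1. tRNA-Trp went from 1.81% ± 0.0636 in Ctrl_1 to 2.36% ± 0.194 in Cl_1, and tRNA-Arg from 10.1% ± 0.436 in Ctrl_1 to 10.95% ± 0.0517 in Cl_1. For these 4 the libraries of Cl_1 and Ctrl_1 did not overlap. The same held for tRNA-Asn, tRNA-Cys, tRNA-Glu, tRNA-Ile, tRNA-Met, initiator methionine, tRNA-Ser and the selenocysteine tRNA, so it does not set the 4 apart. tRNA-Asp (0.66 points) and tRNA-Asn (0.58 points) moved by more than tRNA-Trp (0.55 points). For tRNA-Lys, tRNA-His, tRNA-Trp and tRNA-Arg the means of Cl_2 and Cl_3 lay on the same side of Ctrl_1 as Cl_1 did. They were 7.74% and 8.69% for tRNA-Lys, 1.71% and 1.88% for tRNA-His, 2.54% and 2.38% for tRNA-Trp, and 11.1% and 10.7% for tRNA-Arg. Cytosolic tRNA-Ala was at 8.01% ± 1.249 in Ctrl_1 and 8.13% ± 0.125 in Cl_1, a difference within the spread of Ctrl_1.

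The nuclear anticodon totals were also grouped by the first base of the anticodon, which pairs with the last base of the codon, a grouping made after the values were seen and with no test of its own. Of all 48 nuclear totals 7 rose and 5 fell (median log2 change 0.059). Over all anticodon totals, mitochondrial ones included, 9.46% rose and 13.5% fell. Of 16 anticodons that begin with C, 6 rose in Cl_1 against Ctrl_1 and 0 fell (median log2 change 0.15, with 15 above 0). Of 15 that begin with T, 1 rose and 4 fell (median -0.075, with 6 above 0). Those beginning with G gave 0 rises and 1 fall of 9, and those with A 0 and 0 of 8. Under the 4 scalings compared, the median of the C group was 0.10 to 0.15 and that of the T group -0.12 to -0.073. With TMM factors from nuclear rows, 12 of the C group and 5 of the T group were above 0.

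Nuclear transcripts were also described by level between Cl_1 and the other Cl lines, beside 16.4% lower and 7.96% higher over all 201 transcripts. Of 29 nuclear transcripts with a mean of 100 to 1000 CPM, 18 were lower in Cl_1 than in the mean of Cl_2 and Cl_3 and 1 was higher, with a median log2 difference of -0.82. Of 106 with 1000 CPM or more, 12 were lower and 15 higher (median 0.069), and of 40 with less than 100 CPM, 3 were lower and 0 higher (median -0.064). Against Ctrl_1 the 29 gave 9 higher and 7 lower (median 0.16). The bands have no test of their own, and the split of all calls, 16 higher and 33 lower, became 7 and 35 on library totals and 30 and 30 with TMM factors from nuclear rows.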
